A study of Mus musculus with 68 samples.

Results

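Motor neurons induced to express a Flag-tagged Pou3f1 were set against motor neurons induced to express Pou3f1 without a tag. The comparison took the 2 arrays titled Flag;Pou3f1 and the 2 arrays titled Pou3f1 among cells sorted for the CD14 reporter. These are 4 of the 68 arrays of the series, all of batch 6 by their titles. The series screened factors for the ability to turn on genes of phrenic motor neurons, the neck-level motor neurons that drive the diaphragm. All cells came from C57/BL6 mouse embryonic stem cells grown as embryoid bodies, which were patterned to ventral spinal tissue from day 2 with a Smoothened agonist and retinoic acid. Dissociation followed on day 5, and motor neurons were enriched by magnetic sorting for a surface protein made from a reporter transgene, CD14 for these 4 arrays and CD2 for most others. Doxycycline then switched on the transgene during 30 h on matrigel. Doxycycline, retinoic acid and the agonist were thus common to Flag-Pou3f1, to untagged Pou3f1 and to the control cells induced to express YFP. The labels call the tagged construct Flag;Pou3f1 in the title and Pou3f1-FLAG among the characteristics, so the end of the protein that carries the tag is not settled, and they do not say whether each line was 1 clone.

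Pou3f1, also called Oct6 or SCIP, is a POU domain transcription factor that binds the octamer motif and is expressed in phrenic and some other motor neurons and in myelinating Schwann cells. The Flag tag is a short peptide recognised by an antibody and is commonly added so that a protein can be stained, precipitated or mapped on chromatin. A tagged factor is often compared with its untagged form to learn whether both switch on the same genes.

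Expression was read as log2 values that the authors made by RMA, a procedure that corrects background, equalises array distributions and summarises probes, for 19938 genes. The 13 arrays of batch 6 from CD14-sorted cells also covered Pou3f1 with Hoxa5, Pou3f1 with Hoxc6, Pou3f1 with a form of Lhx3 labelled DN (2 arrays each), the E3 parental line (1 array) and YFP (2 arrays). The E3 array was grouped apart from other E3 arrays of the series grouped as induced, so it is not counted as sharing the doxycycline. Their array medians lay between 8.15 and 8.26. Differences are in log2 units, ± gives the standard error of the limma fit over all 68 arrays unless an SD is named, and adjusted p-values are limma's with Benjamini-Hochberg adjustment over all genes. A gene is said to have risen, fallen or differed where that adjusted p was under 0.05. Nothing in the labels ties replicate arrays to separate cultures, and the p-values therefore cover only the variation among these arrays, which may be technical. In such bulk samples fewer cells of a type and less RNA per cell cannot be told apart.

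The Flag-Pou3f1 arrays stood apart from each other more than any other replicate pair of the batch. Their values differed by more than 1 log2 unit at 246 genes, whereas the untagged pair did so at 8 genes and the other 4 pairs at 3 to 18. The median absolute difference within the pair was 0.117 for Flag-Pou3f1, 0.115 for Pou3f1 with Lhx3 (DN) and 0.0859 for untagged Pou3f1. By that measure Flag-Pou3f1 was hardly wider than Pou3f1 with Lhx3 (DN). The 2 Flag-Pou3f1 arrays differed widely at genes of the cell cycle. The mean level of 17 cell cycle genes was 8.61 and 10.07 in the Flag-Pou3f1 arrays, against 9.24 and 9.40 in the untagged arrays. The lowest and the highest of the 13 arrays on this measure were thus both Flag-Pou3f1 arrays, with the other lines between 8.81 and 9.60. Mki67, a marker of dividing cells, read 8.05 and 9.76 in Flag-Pou3f1 and 9.31 and 9.53 in untagged Pou3f1. Top2a, which untangles chromosomes before division, read 8.58 and 10.34 in Flag-Pou3f1 and 9.36 and 9.55 in untagged Pou3f1. Cdk1, the mitotic kinase, read 8.62 and 10.44 in Flag-Pou3f1 and 9.30 and 9.58 in untagged Pou3f1. In each case replicate 1 of Flag-Pou3f1 lay below both untagged arrays and replicate 2 above both. The 16 markers of neural progenitors and radial glia averaged 9.17 and 10.12 in Flag-Pou3f1 and 9.74 and 9.83 in untagged Pou3f1, in the same order. The motor neuron markers did not follow it: the mean of 13 such genes was 11.58 and 11.56 in Flag-Pou3f1 and 11.47 and 11.51 in untagged Pou3f1. Other genes named here because of their spread in Flag-Pou3f1 were Ccnd2, a cyclin of the first gap phase, at 9.25 and 10.81, Nkx2-9, a ventral patterning factor, at 8.98 and 10.64, and Ifitm3, an antiviral membrane protein, at 6.92 and 9.22. Sst, the neuropeptide somatostatin, ran the other way at 13.29 and 12.05. The part of this difference between the arrays in the results below was not tested beyond leaving out each array in turn.

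**Figure D1:**
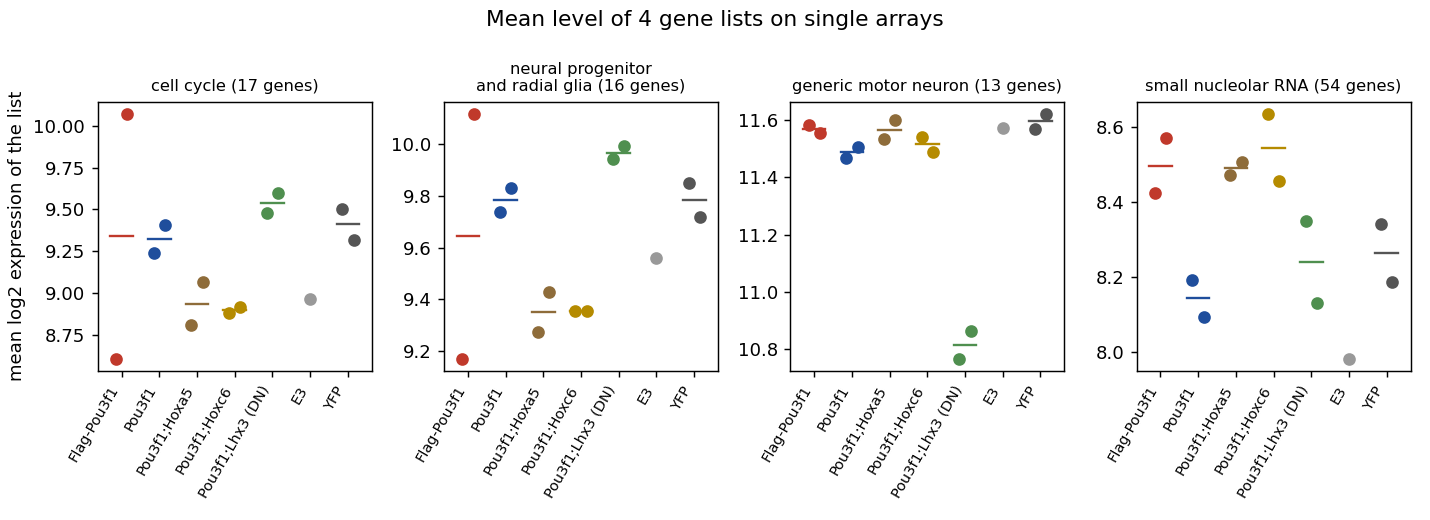
Mean log2 expression of the genes of 4 lists (vertical axes) on each of the 13 batch 6 arrays from CD14-sorted cells. Points are arrays and horizontal bars are line means. The 2 Flag-Pou3f1 arrays are the lowest and the highest for cell cycle and progenitor genes, lie close together for motor neuron genes, and lie above both untagged arrays for small nucleolar RNAs.

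The transcript of Pou3f1 itself differed between the lines by less than the spread within them. It measured 9.03 and 8.86 in Flag-Pou3f1, 8.76 and 9.07 in untagged Pou3f1, and 8.45 and 8.48 in YFP. The Flag-Pou3f1 and untagged values overlapped and the YFP values lay below all 4. The difference between Flag-Pou3f1 and untagged Pou3f1 was 0.03 ± 0.19 (95% interval -0.35 to 0.41, limma adjusted p = 0.96). Against YFP, Flag-Pou3f1 stood 0.48 higher (adjusted p = 0.182) and untagged Pou3f1 0.45 higher (adjusted p = 0.583), so neither rise passed the test. These differences share the YFP arrays. The same gene was 10.29 and 10.33 in Pou3f1 with Hoxc6. Its rise in CD2-sorted cells was 1.09 (adjusted p = 0.00055). Which part of the transcript the probes cover, and whether transgene and endogenous RNA are read alike, was not analysed here.

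Of the 3 sister genes of the POU3 class, Pou3f4 fell. It measured 11.30 and 11.03 in Flag-Pou3f1, 11.79 and 11.82 in untagged Pou3f1, and 11.64 and 11.37 in YFP. The YFP arrays lay between the lines. Flag-Pou3f1 stood 0.34 below YFP (adjusted p = 0.117) and untagged Pou3f1 0.30 above it (adjusted p = 0.544). The 2 lines did not overlap, and the difference between them was -0.64 ± 0.12 (adjusted p = 0.00209). Without replicate 2 of Flag-Pou3f1 the adjusted p was 0.115. Pou3f2 differed by 0.01 and Pou3f3 by -0.12, with adjusted p of 0.992 and 0.754.

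Across all genes, 440 differed between Flag-Pou3f1 and untagged Pou3f1, which is 2.21% of those tested. In Flag-Pou3f1 162 were higher (0.813%) and 278 were lower (1.39%). At an unadjusted p under 0.05 there were 3261. The changes were small: the median was 0.54 among the higher and -0.52 among the lower, and 6 rises and 5 falls went past 1 log2 unit. The 2 and 2 values of all 440 genes did not overlap, which also held for 57.9% of all genes. The median of all genes was 0.0494, and centring each array on its median gave 439 genes, 65 higher and 374 lower, so the balance of rises to falls depends on the scaling. Leaving out 1 of the 4 arrays left 53 to 115 genes. Only 27 of the 440, 2 higher and 25 lower, passed without any 1 array. Every other gene said below to have differed between Flag-Pou3f1 and untagged Pou3f1 lost its call without at least 1 of the 4. Within batch 6 alone 2351 genes passed, 432 of the 440 among them. All 4 arrays are of batch 6, so that fit changes the estimated spread and not the differences. With the 4 arrays alone, and with all arrays but no batch terms, limma called 0 genes (4774 and 2094 at an unadjusted p under 0.05).

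Genes that respond to Pou3f1 were chosen from arrays with no part in the comparison. In the CD2-sorted arrays fitted alone, Pou3f1 changed 134 genes relative to YFP (0.672%), raising 91 (0.456%) and lowering 43 (0.216%). In Flag-Pou3f1 31 of the 91 raised genes rose relative to YFP and 0 fell, where 2.44% of all genes differed from YFP, 1.28% higher and 1.15% lower. In untagged Pou3f1 30 of the 91 rose and 0 fell, where 0.306% of all genes differed, 0.246% higher and 0.0602% lower. Both lines raised 17 of them, Flag-Pou3f1 alone passed at 14, untagged Pou3f1 alone at 13, and neither at 47. Both comparisons use the same YFP arrays, and a gene that passed in 1 line only is not thereby shown to differ between the lines. The median difference from YFP over the 91 genes was 0.38 in Flag-Pou3f1 and 0.54 in untagged Pou3f1, beside 0.03 and -0.01 over all genes.

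Directly compared, 1 of the 91 genes was higher in Flag-Pou3f1 than in untagged Pou3f1 and 9 were lower, where 0.813% of all genes were higher and 1.39% lower. The median difference over the 91 was -0.09, beside 0.0494 over all genes, with 53 values below 0 and 38 above, where 58.9% of all genes were above 0. Without 1 of the 4 arrays that median ran from -0.168 to -0.00543. The 95% interval held 0 for 59 of the 91 genes, and for 76 it lay within 1 log2 unit of 0 on both sides.

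The genes that Pou3f1 raised most in CD2-sorted cells include the type II cadherins Cdh9 and Cdh10, adhesion molecules by which motor neurons of the same pool recognise each other. Cdh9 measured 7.80 and 9.60 in Flag-Pou3f1, 9.58 and 9.62 in untagged Pou3f1, and 5.86 and 5.87 in YFP. Replicate 1 of Flag-Pou3f1 was the low array here, and replicate 2 lay between the untagged arrays. The difference of -0.91 ± 0.62 had an adjusted p of 0.483 and an interval of -2.16 to 0.35, while Cdh9 rose over YFP by 2.83 in Flag-Pou3f1 and by 3.73 in untagged Pou3f1 (adjusted p = 0.00861 and 0.000887). Cdh10 measured 9.50 and 10.03 in Flag-Pou3f1, 9.63 and 9.80 in untagged Pou3f1, and 8.22 and 8.37 in YFP. The Cdh10 values overlapped between the Pou3f1 lines and all lay above YFP, with a difference of 0.05 ± 0.21 between the lines.

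Tmem207, a small membrane protein gene, measured 9.72 and 9.85 in Flag-Pou3f1, 9.57 and 9.58 in untagged Pou3f1, and 6.91 and 6.78 in YFP. It rose over YFP by 2.95 and 2.73 in the tagged and untagged lines, and the lines differed by 0.21 (adjusted p = 0.732). Inpp4b, a phosphatase of phosphoinositide signalling, measured 8.11 and 8.86 in Flag-Pou3f1, 8.51 and 8.50 in untagged Pou3f1, and 6.45 and 6.50 in YFP. The Flag-Pou3f1 arrays lay on either side of the untagged arrays, and the difference was -0.02 (adjusted p = 0.978). Pcdh10, a delta protocadherin of the phrenic list, measured 10.77 and 10.70 in Flag-Pou3f1, 10.67 and 10.61 in untagged Pou3f1, and 9.85 and 9.92 in YFP. Its difference between the lines was 0.10 (adjusted p = 0.851), and its rise over YFP passed in Flag-Pou3f1 (adjusted p = 0.0122) and not in untagged Pou3f1 (adjusted p = 0.0906).

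Among the other most responsive genes, Dlk1, a membrane ligand related to Notch ligands, differed by -0.04 between the lines. Mro differed by 0.01, Crym, a thyroid hormone binding crystallin, by 0.01, and Cadps2, a priming factor of dense core vesicles, by 0.11. C1ql4, a secreted synaptic protein of the C1q family, differed by -0.28 and Lmo3, a LIM-only transcriptional cofactor, by -0.64. Lmo3 measured 10.12 and 10.13 in Flag-Pou3f1, 10.84 and 10.69 in untagged Pou3f1, and 9.23 and 8.63 in YFP, so both Flag-Pou3f1 arrays lay between the untagged and the YFP arrays. Its adjusted p was 0.463, and 0.0431 within batch 6 alone.

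The 1 raised gene that was higher in Flag-Pou3f1 was Igfbpl1, a secreted relative of the insulin-like growth factor binding proteins. It measured 9.62 and 9.93 in Flag-Pou3f1, 8.87 and 8.96 in untagged Pou3f1, and 8.41 and 8.39 in YFP. Both Flag-Pou3f1 arrays were above the 11 other batch 6 arrays, the nearest of which read 9.25. The difference was 0.86 ± 0.21 (adjusted p = 0.0188), and the adjusted p was 0.227 without replicate 2 of Flag-Pou3f1.

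The 9 raised genes that were lower in Flag-Pou3f1 were Zfhx4, Fign, Nkx6-2, Mn1, Tenm2, Ksr2, Adgrl3, Sipa1l3 and Lrguk, with differences between -0.83 and -0.45. Each of them read closer to YFP in Flag-Pou3f1 than in untagged Pou3f1. This follows largely from their choice as genes raised by Pou3f1 and lower in Flag-Pou3f1, so it adds no separate result. Fign, a microtubule-severing enzyme, measured 7.96 and 8.12 in Flag-Pou3f1, 8.84 and 8.89 in untagged Pou3f1, and 7.94 and 7.67 in YFP. Nkx6-2, a homeodomain factor of ventral progenitors and some motor neurons, measured 8.78 and 9.26 in Flag-Pou3f1, 9.76 and 9.77 in untagged Pou3f1, and 8.87 and 8.98 in YFP. Tenm2, a teneurin adhesion protein, measured 9.90 and 9.89 in Flag-Pou3f1, 10.49 and 10.63 in untagged Pou3f1, and 9.82 and 9.68 in YFP. In all 3 genes the Flag-Pou3f1 and untagged arrays did not overlap. Their differences were -0.83 for Fign, -0.74 for Nkx6-2 and -0.66 for Tenm2, with adjusted p of 0.034, 0.0401 and 0.0218. A second quantile normalization removed the calls of Fign and Nkx6-2 and kept that of Tenm2. Leaving out 1 array raised the largest adjusted p of the 9 genes to between 0.0941 and 0.424. The Tenm2 level was also low in Pou3f1 with Hoxa5 (9.82 and 9.79) and in Pou3f1 with Hoxc6 (9.71 and 9.72), beside 10.39 and 10.44 in Pou3f1 with Lhx3 (DN).

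**Figure D2:**
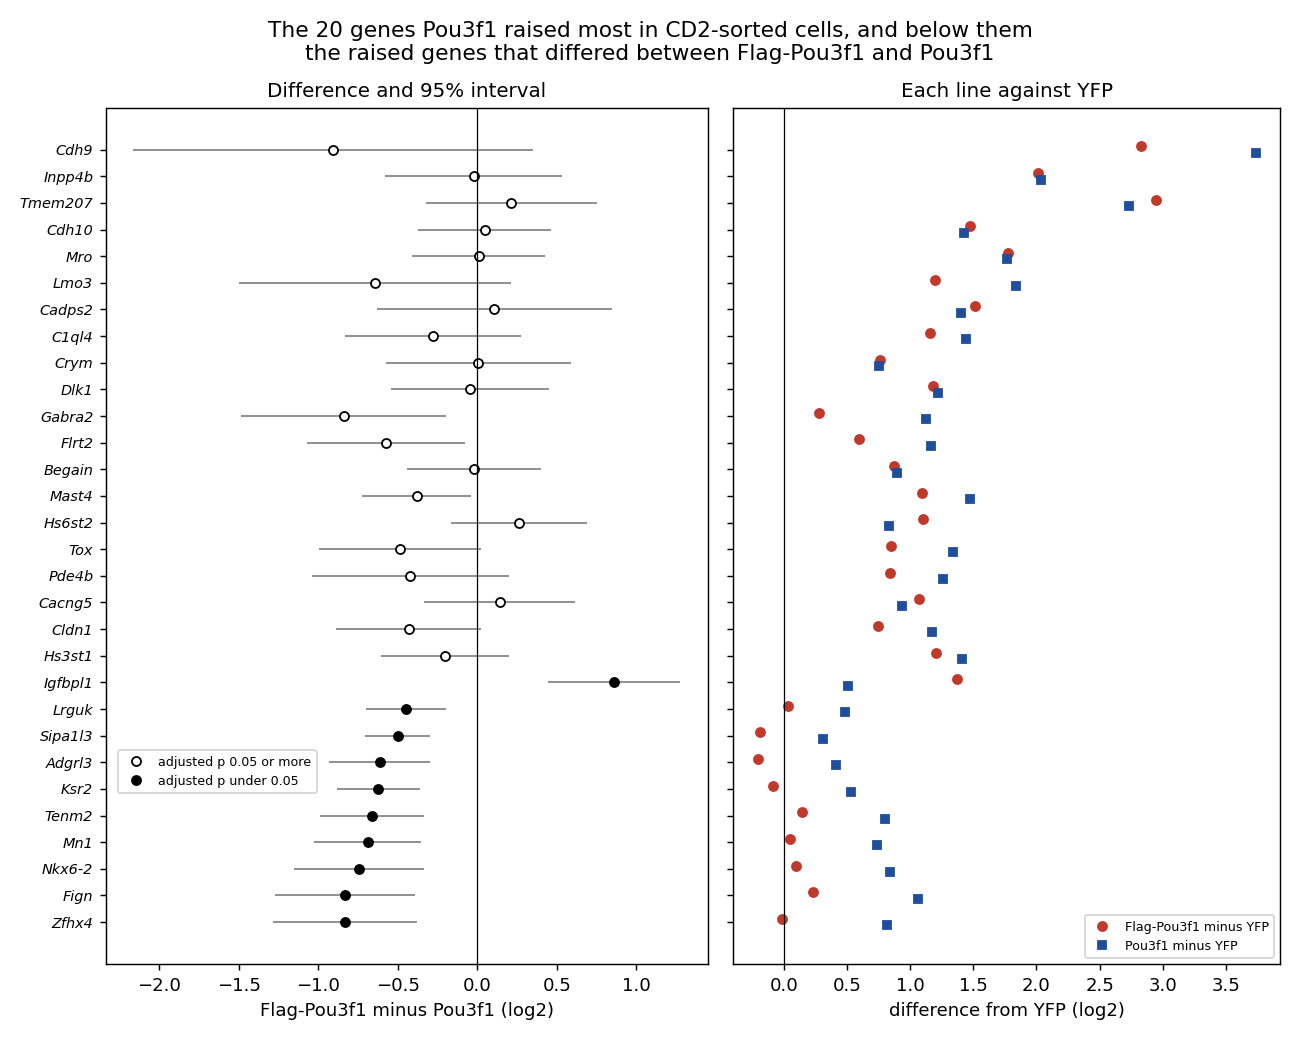
Genes raised by Pou3f1 in CD2-sorted cells: the 20 with the largest rise there, then the 10 that passed the test between Flag-Pou3f1 and untagged Pou3f1. Left, log2 difference between Flag-Pou3f1 and Pou3f1 with its 95% interval, filled where the adjusted p was under 0.05. Right, log2 difference of Flag-Pou3f1 (circles) and Pou3f1 (squares) from YFP. None of the upper 20 is filled, and all lie above YFP in both lines, while the 9 lower genes lie at most 0.23 above YFP in Flag-Pou3f1. Those 9 were chosen for being lower in Flag-Pou3f1 than in untagged Pou3f1.

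Of the 43 genes lowered by Pou3f1 in CD2-sorted cells, 12 fell relative to YFP in Flag-Pou3f1, where 1.15% of all genes were lower, and 1 in untagged Pou3f1, where 0.0602% were. The medians were close, -0.61 in Flag-Pou3f1 and -0.53 in untagged Pou3f1, and the interval of the difference between the lines held 0 for 40 of the 43. The 1 gene of the 43 that passed between the lines was Pou3f4, which stood below YFP in Flag-Pou3f1 and above it in untagged Pou3f1. Here too the Flag-Pou3f1 arrays were far apart: 17 of the 43 genes differed by more than 0.5 between the pair, and 1 of the 43 between the untagged arrays. Igfbp2, an insulin-like growth factor binding protein, measured 8.44 and 8.81 in Flag-Pou3f1, 8.53 and 8.45 in untagged Pou3f1, and 9.87 and 9.86 in YFP. The line difference at Igfbp2 was 0.14 (adjusted p = 0.881).

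POU factors bind the octamer ATGCAAAT, and it was searched on both strands from 250 bases before to 50 bases after each gene's start in RefSeq promoters of GRCm38.p6. It was found for 2 of the 72 raised genes with a promoter in that table (2.78%), for 0 of 37 lowered genes, and for 297 of 15614 genes in all (1.9%). Among genes that differed between the lines it was found for 5 of 120 higher (4.17%) and 2 of 233 lower (0.858%). The raised genes that hold it are Hdac9, a class II histone deacetylase, at chr12:34528840-34529139 on the minus strand, and Synpr, the synaptic vesicle protein synaptoporin, at chr14:13453708-13454007 on the plus strand. They are shown because they are the 2 responsive genes with the letters near the start, and capitals mark the octamer.

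Hdac9 promoter: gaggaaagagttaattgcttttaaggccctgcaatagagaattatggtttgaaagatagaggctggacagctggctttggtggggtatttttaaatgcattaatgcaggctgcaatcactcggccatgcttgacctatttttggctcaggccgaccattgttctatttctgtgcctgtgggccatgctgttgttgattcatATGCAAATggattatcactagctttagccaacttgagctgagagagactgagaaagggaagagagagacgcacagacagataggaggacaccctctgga

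Synpr promoter: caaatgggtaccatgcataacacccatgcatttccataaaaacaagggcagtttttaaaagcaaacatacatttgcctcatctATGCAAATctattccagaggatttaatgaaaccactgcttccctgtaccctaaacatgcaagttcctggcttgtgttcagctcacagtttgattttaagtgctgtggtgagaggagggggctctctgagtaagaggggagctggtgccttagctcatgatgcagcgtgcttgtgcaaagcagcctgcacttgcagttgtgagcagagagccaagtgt

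Hdac9 measured 8.79 and 8.98 in Flag-Pou3f1 and 9.19 and 9.43 in untagged Pou3f1, with a difference of -0.42 (adjusted p = 0.17). Synpr measured 8.74 and 9.03 in Flag-Pou3f1 and 8.09 and 8.42 in untagged Pou3f1, with a difference of 0.63 (adjusted p = 0.0713). The 2 octamer genes thus had differences of opposite sign, and neither passed the test. The letters are a description of these windows and not a bound site.

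The largest rises in Flag-Pou3f1 were in noncoding RNAs. Malat1, an abundant long RNA retained in the nucleus, measured 12.21 and 12.25 in Flag-Pou3f1, 10.67 and 10.36 in untagged Pou3f1, and 10.57 and 10.91 in YFP. It was 3.29-fold higher in Flag-Pou3f1 than in untagged Pou3f1, a difference of 1.72 ± 0.37 (adjusted p = 0.00768). Malat1 also read 11.96 and 11.97 in Pou3f1 with Hoxa5 and 12.11 and 11.98 in Pou3f1 with Hoxc6, beside 10.85 and 10.78 in Pou3f1 with Lhx3 (DN) and 10.53 in E3. It was the 1 gene called among 8 nuclear long noncoding RNAs, where 2.21% of all genes differed. The median difference of the 8 was 0.54, beside 0.0494 over all genes.

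Small nucleolar RNAs, which guide chemical modification of ribosomal RNA and are mostly cut from introns of other genes, rose at 5 of 54 and fell at 0, where 0.813% of all genes were higher. Of the 54 differences 45 were above 0, with a median of 0.29, beside 58.9% and 0.0494 over all genes. Snord73b measured 8.39 and 8.98 in Flag-Pou3f1, 7.13 and 7.07 in untagged Pou3f1, and 8.12 and 7.40 in YFP. The difference was 1.58 ± 0.27 (adjusted p = 0.000759), although the YFP arrays lay between the lines. Snord53 measured 10.73 and 10.83 in Flag-Pou3f1 and 9.61 and 9.72 in untagged Pou3f1, a rise of 1.12. Snord35a and Snord35b rose by 1.13 and 1.09, and Snord15b was the fifth member called. The mean of the 54 was 8.43 and 8.57 in Flag-Pou3f1 and 8.19 and 8.09 in untagged Pou3f1, and 8.46 to 8.63 in Pou3f1 with Hoxa5 or with Hoxc6. Without 1 array the largest adjusted p was 0.157 for Malat1 and between 0.0688 and 0.241 for Snord73b, Snord35a, Snord53 and Snord35b. The 5S ribosomal RNA gene n-R5s136 rose by 0.92 (adjusted p = 0.00392).

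Of 297 microRNA genes, 7 rose and 2 fell, where 0.813% of all genes were higher and 1.39% lower, and the median was 0.08. The arrays read the gene of a microRNA and do not tell its 2 arms or its mature form apart. The mature sequences of 6 of the 9 genes are shown with the seed, bases 2 to 8, in capitals, because 2 of the risen genes share a seed and 2 lie in 1 cluster; they are RefSeq's for GRCm38.p6.

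mmu-let-7f-5p: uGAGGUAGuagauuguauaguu

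mmu-let-7i-5p: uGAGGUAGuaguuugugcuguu

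mmu-miR-19b-3p: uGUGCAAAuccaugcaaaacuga

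mmu-miR-20a-5p: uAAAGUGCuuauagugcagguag

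mmu-miR-24-3p: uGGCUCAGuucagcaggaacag

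mmu-miR-190b-5p: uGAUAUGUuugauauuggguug

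The let-7 family, which is associated with differentiation and the end of progenitor proliferation, gave Mirlet7f-1 and Mirlet7i, whose shared seed GAGGUAG is seen in the first 2 sequences. Mirlet7f-1, with its mature 5p arm at chr13:48537889-48537910 on the minus strand, measured 6.10 and 6.42 in Flag-Pou3f1, 5.69 and 5.45 in untagged Pou3f1, and 5.22 and 5.45 in YFP. Mirlet7i, at chr10:122985698-122985719 on the minus strand, measured 8.01 and 7.97 in Flag-Pou3f1, 7.55 and 7.27 in untagged Pou3f1, and 7.55 and 7.64 in YFP. The rises were 0.69 and 0.58 (adjusted p = 0.0219 and 0.0187), and the line values did not overlap at either gene.

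Mir20a and Mir19b-1 belong to the cluster of miR-17, known for promoting proliferation, and their mature arms lie at chr14:115044183-115044205 and chr14:115044358-115044380 on the plus strand. Mir19b-1 measured 7.02 and 7.18 in Flag-Pou3f1 and 6.28 and 6.33 in untagged Pou3f1, and rose by 0.80. Mir20a measured 6.11 and 5.94 in Flag-Pou3f1, 5.36 and 5.36 in untagged Pou3f1, and rose by 0.67. The YFP arrays read 5.88 and 5.64 for Mir20a, so there both untagged arrays were the low ones. Mir24-2, at chr8:84208875-84208896 on the plus strand, rose by 0.68, and Mir208a and Mir6516 rose by 0.61 and 0.51. Mir190b, at chr3:90070030-90070051 on the plus strand, measured 3.53 and 3.49 in Flag-Pou3f1 and 4.30 and 4.46 in untagged Pou3f1 and fell by 0.87, and Mir463 fell by 0.60. All values of Mir190b and Mir463 lay low in the range of these arrays. A second quantile normalization removed the calls of Mir19b-1, Mir20a, Mirlet7f-1, Mir208a, Mir6516 and Mir463. It kept those of Mirlet7i, Mir24-2 and Mir190b. Mir208a was not called within batch 6 alone either. Without 1 array the largest adjusted p of the 9 genes was 0.145 to 0.502.

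Several protein-coding genes of neurons and metabolism were among the 15 largest rises. Crabp1, which binds retinoic acid in the cytoplasm, measured 13.49 and 13.34 in Flag-Pou3f1, 12.20 and 12.42 in untagged Pou3f1, and 13.13 and 13.42 in YFP. Beside Flag-Pou3f1 and YFP the untagged arrays were the low ones: Crabp1 differed by 1.11 ± 0.22 between the lines (adjusted p = 0.00382), by 0.14 between Flag-Pou3f1 and YFP and by -0.96 between untagged Pou3f1 and YFP (adjusted p = 0.0344). Crabp1 was also low in E3 (12.22) and in Pou3f1 with Lhx3 (DN) (12.32 and 11.81). It read 12.69 and 12.51 in Pou3f1 with Hoxc6, and 13.14 and 13.12 in Pou3f1 with Hoxa5. Slc17a6, the vesicular glutamate transporter VGLUT2, measured 7.74 and 8.08 in Flag-Pou3f1, 7.04 and 6.97 in untagged Pou3f1, and 6.94 and 6.40 in YFP. At Slc17a6 the Flag-Pou3f1 arrays lay above untagged Pou3f1 and YFP, with rises of 0.91 over untagged Pou3f1 (adjusted p = 0.0359) and 1.24 over YFP (adjusted p = 0.00296). Pou3f1 with Lhx3 (DN) read 7.92 and 7.05, so 1 of its arrays lay between the 2 Flag-Pou3f1 arrays.

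Mrpl46, a mitochondrial ribosomal protein, rose by 0.82 to 9.84 and 9.62 in Flag-Pou3f1, against 8.81 and 9.01 in untagged Pou3f1. Sdhaf4, an assembly factor of succinate dehydrogenase, rose by 0.82 to 8.80 and 8.70 in Flag-Pou3f1, against 7.76 and 8.09 in untagged Pou3f1. Sdha, the catalytic subunit of the same enzyme, rose by 0.43. It was the 1 gene called among 90 nuclear genes of oxidative phosphorylation, where 2.21% of all genes differed. The median of the 90 was 0.14, with 67 above 0, beside 0.0494 and 58.9% over all genes. Both Mrpl46 and Sdhaf4 read as high in Pou3f1 with Hoxa5 (9.60 to 9.86 and 8.77 to 8.80). The remaining large rises were Cmtm4 (0.89), Trim34a (0.85) and Sbpl (0.83). Acaa1a, a thiolase of peroxisomal fatty acid breakdown, measured 8.998 and 8.94 in Flag-Pou3f1, 8.35 and 8.38 in untagged Pou3f1, and 8.67 and 8.80 in YFP. The untagged arrays were the lowest of the 13, and Flag-Pou3f1 stood 0.23 above YFP (adjusted p = 0.276). Acaa1a was 1 of the 2 higher genes that passed without any 1 array (0.61, adjusted p = 0.00094), the other being a RIKEN clone.

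Usp17ld showed the largest fall. It belongs to the Usp17 family of deubiquitinating enzymes, near-identical copies between which probes can be shared. It measured 6.96 and 7.02 in Flag-Pou3f1, 9.05 and 8.53 in untagged Pou3f1, and 8.72 and 8.71 in YFP. It was 3.49-fold lower in Flag-Pou3f1, a difference of -1.80 ± 0.21 (adjusted p = 2.68e-06), and was the 1 gene of the 15 largest rises and 15 largest falls that passed without any 1 array. Usp17ld also read 7.14 and 6.75 in Pou3f1 with Hoxa5 and 6.96 and 6.94 in Pou3f1 with Hoxc6, beside 8.52 and 9.04 in Pou3f1 with Lhx3 (DN) and 8.76 in E3. Usp17ld was thus low in 3 lines of the batch and high in the other 4. The YFP arrays of batch 7, also from CD14-sorted cells, read 6.90 and 7.28 for Usp17ld, so the same control differed between batches by about as much as Flag-Pou3f1 and untagged Pou3f1 did.

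Sema5a, a transmembrane semaphorin that steers growing axons, had a pattern of its own. It measured 8.42 and 8.14 in Flag-Pou3f1, 9.65 and 9.47 in untagged Pou3f1, and 8.78 and 8.53 in YFP. Both Flag-Pou3f1 arrays were the lowest of the 13 batch 6 arrays, below Pou3f1 with Hoxa5 (10.09 and 9.56), with Hoxc6 (10.27 and 10.19) and with Lhx3 (DN) (10.82 and 11.22). The difference was -1.28 ± 0.27 from untagged Pou3f1 (adjusted p = 0.00683), -1.55 from Pou3f1 with Hoxa5 (adjusted p = 0.00931) and -1.95 from Pou3f1 with Hoxc6 (adjusted p = 8.26e-06). These 3 differences share the Flag-Pou3f1 arrays. The difference from YFP was -0.37 (adjusted p = 0.576). Without replicate 2 of Flag-Pou3f1 the adjusted p against untagged Pou3f1 was 0.134.

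Pou2f2, a POU factor better known from lymphocytes, measured 8.67 and 8.52 in Flag-Pou3f1, 9.84 and 9.76 in untagged Pou3f1, and 9.01 and 8.52 in YFP, and fell by 1.20 (adjusted p = 0.00614). Bmp7, a secreted bone morphogenetic protein, measured 10.35 and 9.78 in Flag-Pou3f1, 11.05 and 10.91 in untagged Pou3f1, and 11.54 and 11.14 in YFP. Bmp7 fell by 0.92 (adjusted p = 0.00942), and both Flag-Pou3f1 arrays lay below the other 11. It was the 1 gene called among 16 of the BMP and TGF-beta list, where 2.21% of all genes differed. Mt2, a metallothionein that binds zinc and copper, fell by 1.12 to 10.62 and 10.68 in Flag-Pou3f1, against 11.75 and 11.80 in untagged Pou3f1 and 12.09 and 12.27 in YFP. It was lower still in Pou3f1 with Hoxc6, at 9.80 and 9.70.

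Stra6, the cell surface transporter of retinol, fell by 0.84 and Bco1, which splits beta-carotene into retinal, by 0.86. Zbtb20, a zinc finger repressor of developing neurons, fell by 0.87, and Cntn6, a contactin of neuronal membranes, by 0.87 with both Flag-Pou3f1 arrays below the other 11. Auts2, a nuclear and cytoplasmic regulator of neuronal development, measured 10.999 and 10.81 in Flag-Pou3f1 and 11.78 and 11.77 in untagged Pou3f1, and fell by 0.87 (adjusted p = 0.00171). The remaining large falls were Man1c1, AY036118, and Zfy2 at a low level of 3.42 and 3.06 in Flag-Pou3f1 and 3.94 and 4.31 in untagged Pou3f1. Among the 15 largest rises and 15 largest falls, a second quantile normalization removed the calls of Slc17a6, Sbpl, Sdhaf4, Mir19b-1, Mt2 and Zfy2. Without 1 array the 14 falls other than Usp17ld had a largest adjusted p of 0.0688 to 0.392, and the 15 rises 0.0688 to 0.281.

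**Figure D3:**
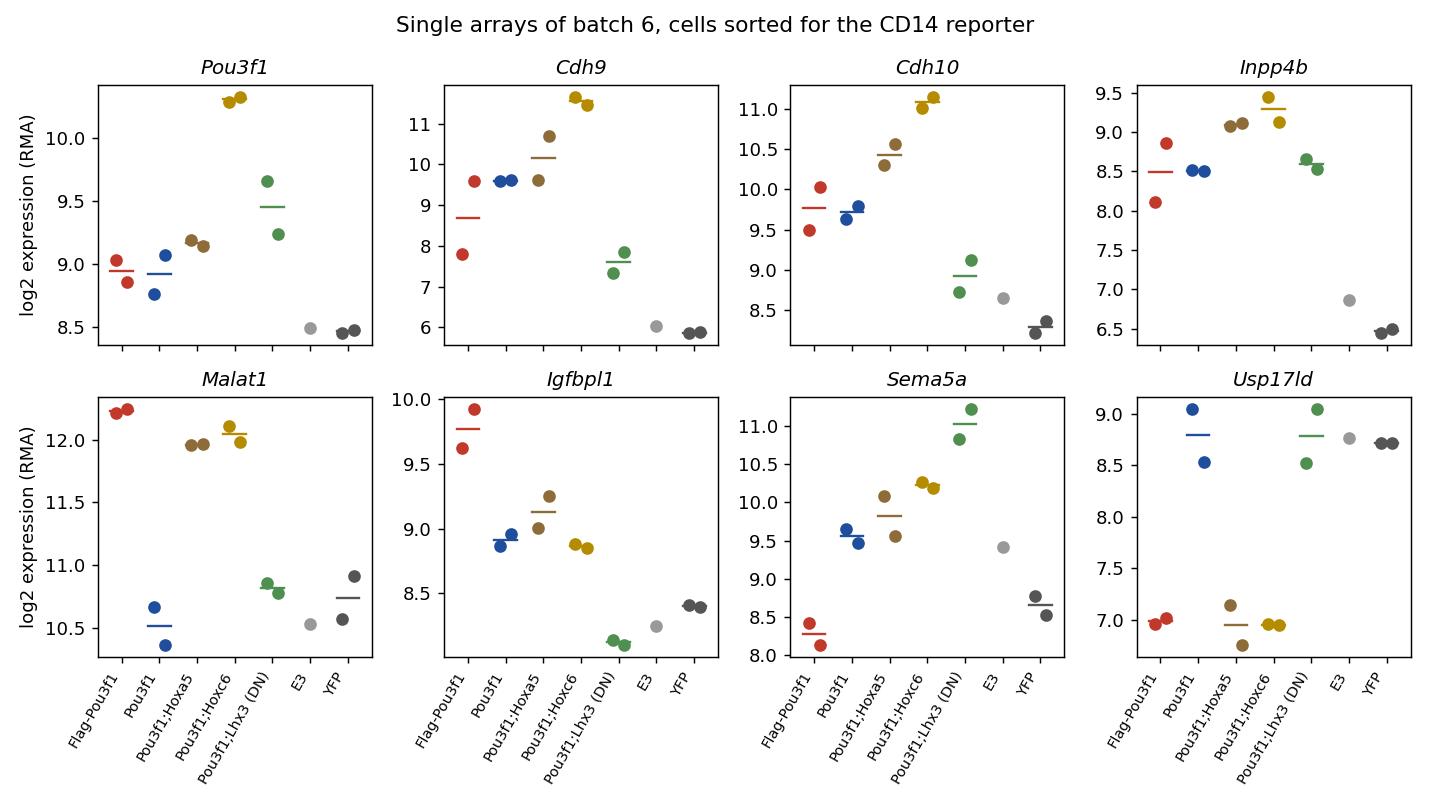
Log2 expression (vertical axes) of 8 genes on each of the 13 batch 6 arrays from CD14-sorted cells. Points are arrays and bars are line means. Flag-Pou3f1 and Pou3f1 overlap at Pou3f1 and at Cdh10. Malat1 and Usp17ld place Flag-Pou3f1 with Pou3f1;Hoxa5 and Pou3f1;Hoxc6 and untagged Pou3f1 with the other lines, and Igfbpl1 and Sema5a place Flag-Pou3f1 beyond all other arrays.

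The 25 lower genes that passed without any 1 array were listed after their values had been seen, with no list or test of their functions. Ep300 and Crebbp, the paired histone acetyltransferases p300 and CBP, fell by 0.75 and 0.59. Ep300 measured 10.66 and 10.69 in Flag-Pou3f1, 11.34 and 11.50 in untagged Pou3f1, and 11.34 and 11.21 in YFP. Crebbp measured 11.43 and 11.48 in Flag-Pou3f1, 12.02 and 12.07 in untagged Pou3f1, and 11.98 and 11.95 in YFP. At both genes the untagged arrays lay with YFP of batch 6, and the Flag-Pou3f1 arrays lay below. Pou3f1 with Hoxa5 and with Hoxc6 lay with Flag-Pou3f1, at 10.54 to 10.69 for Ep300 and 11.30 to 11.43 for Crebbp. The YFP arrays of batch 7 read 11.04 and 11.06 for Ep300 and 11.66 and 11.64 for Crebbp. They thus lay between YFP of batch 6 and Flag-Pou3f1, so the same control differed between batches here too. At all 25 genes the 4 arrays of Pou3f1 with Hoxa5 or Hoxc6 were likewise wholly below those of Pou3f1 with Lhx3 (DN), E3 and YFP, while both Flag-Pou3f1 arrays were the lowest of the 13 at 3. Arid1a, a subunit of the BAF remodelling complex, fell by 0.63, Setd2, the histone H3 lysine methyltransferase of transcribed genes, by 0.61, Srcap and Ep400, ATPases that exchange histone H2A.Z, by 0.55 and 0.47, Phf8, a histone demethylase, by 0.68, and Med13, a subunit of the Mediator kinase module, by 0.52.

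Others of the 25 were of mixed function. Nfasc, an adhesion protein of the axon initial segment and nodes, fell by 0.73 (adjusted p = 2.52e-05). It measured 10.66 and 10.58 in Flag-Pou3f1, 11.34 and 11.37 in untagged Pou3f1, and 11.21 and 11.25 in YFP. The YFP arrays of batch 7 read 10.53 and 10.57 for Nfasc, as low as Flag-Pou3f1. For Bmpr2 they read 11.62 and 11.59, close to YFP of batch 6 at 11.70 and 11.64. L1cam, an adhesion protein of growing axons, fell by 0.55 and Nectin1, a junctional adhesion protein, by 0.78. Bmpr2, the type II receptor for BMPs, fell by 0.70 (adjusted p = 4.02e-05) and Igf1r, the receptor for insulin-like growth factor, by 0.71. Srrm4, a splicing factor of neuronal microexons, fell by 0.80. Clip3, Nav1, Taok1, Arhgap32, Arhgap35, Hipk2, Kctd1, Prrc2b and Tnrc18 fell by 0.48 to 0.76. Usp17ld and a RIKEN clone completed the 25.

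The lower genes were long and the higher genes short. The median span in the genome of the protein-coding genes was 10.5 kb among 134 higher and 86.1 kb among 272 lower genes, beside 19.2 kb over 18556 tested. Spans over 50 kb were held by 9 of the higher genes (6.72%), 182 of the lower genes (66.9%) and 24.7% of all. A mean level over 10 on the 4 arrays was held by 35 of the 162 higher genes, 186 of the 278 lower genes and 25.6% of all. Over all protein-coding genes the median difference between Flag-Pou3f1 and untagged Pou3f1 was 0.10 for spans of 5 to 10 kb, 0.04 for 20 to 50 kb and -0.12 for 200 kb or more. A like slope was present between lines that share no array with this comparison. For Pou3f1 with Hoxa5 minus YFP the medians in the same bins were 0.04, 0.02 and -0.06, and for Pou3f1 with Hoxc6 minus Pou3f1 with Lhx3 (DN) they were 0.13, 0.06 and -0.12. For Pou3f1 with Lhx3 (DN) minus YFP the slope had the opposite sign, with -0.03, -0.00158 and 0.06. Of the 9 responsive genes that were lower in Flag-Pou3f1, 7 spanned 105 kb (Lrguk) to 1230 kb (Tenm2), while Mn1 spanned 39.7 kb and Nkx6-2 3.42 kb. The part of gene span in any single result was not tested.

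**Figure D4:**
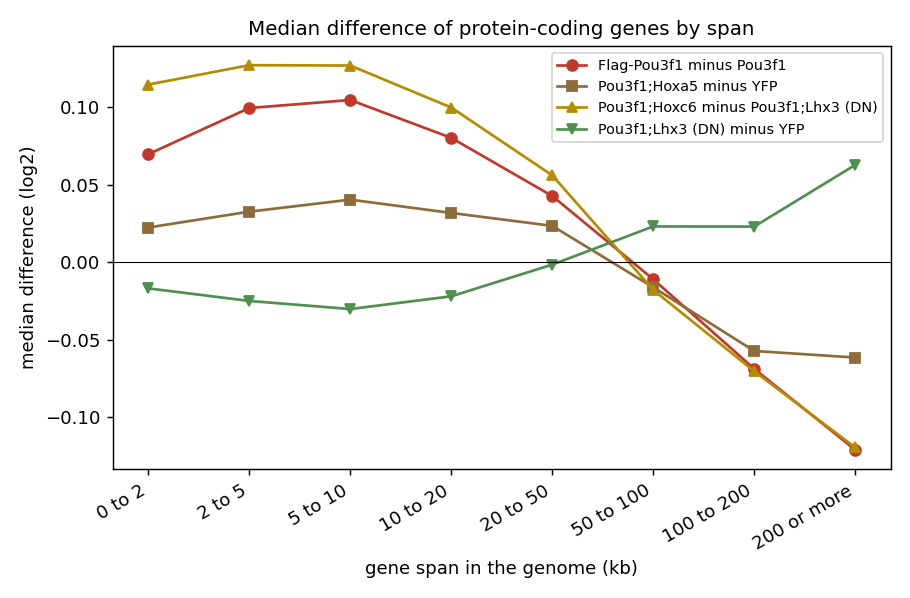
Median log2 difference of protein-coding genes (vertical axis) in 8 bins of gene span in kb (horizontal axis) for 4 pairs of lines of batch 6. Circles show Flag-Pou3f1 minus Pou3f1, which runs between 0.10 and -0.12. Pou3f1;Hoxa5 minus YFP and Pou3f1;Hoxc6 minus Pou3f1;Lhx3 (DN), which share no array with it, slope the same way, and Pou3f1;Lhx3 (DN) minus YFP slopes the other way.

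The genes that differed between Flag-Pou3f1 and untagged Pou3f1 also differed between other lines of the batch. Over 19938 genes (genes are no independent replicates) the difference of Flag-Pou3f1 from untagged Pou3f1 correlated with that of Pou3f1 with Hoxa5 from YFP at Pearson's r = 0.411 (Spearman's rho 0.419), and with that of Pou3f1 with Hoxc6 from Pou3f1 with Lhx3 (DN) at r = 0.482 (rho 0.549). With that of Pou3f1 with Lhx3 (DN) from YFP it correlated at r = -0.102 (rho -0.129). None of these pairs shares an array with Flag-Pou3f1 or untagged Pou3f1, but all share the batch. Of the 162 higher genes, 142 were above 0 for Pou3f1 with Hoxa5 minus YFP, where 53% of all genes were. Of the 278 lower genes, 261 were below 0 there. At 317 of the 440 genes (72%) the 4 arrays of Pou3f1 with Hoxa5 or Hoxc6 lay wholly apart from the 5 of Pou3f1 with Lhx3 (DN), E3 and YFP, in the direction of the Flag-Pou3f1 difference, beside 20.8% of all genes. In the opposite direction this held for 1 of the 440 and 1.82% of all. The 2 Flag-Pou3f1 arrays lay beyond all 11 others at 52 of the 440 (11.8%, beside 2.86% of all), and the 2 untagged arrays at 87 (19.8%, beside 6.13% of all). The labels give no processing group finer than the batch, and every line lies wholly on 1 side of this divide, so the line and any shared handling cannot be told apart.

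**Figure D5:**
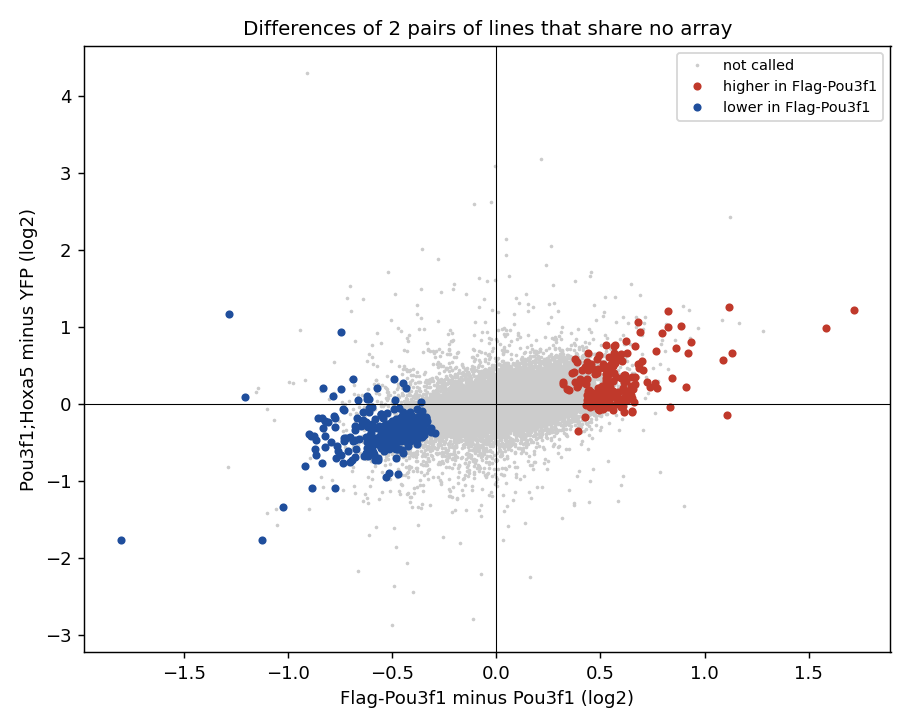
Each point is 1 of 19938 genes, placed by its log2 difference between Flag-Pou3f1 and Pou3f1 (horizontal axis) and between Pou3f1;Hoxa5 and YFP (vertical axis), which share no array. Of the 162 genes higher in Flag-Pou3f1 142 lie above 0 on the vertical axis, and of the 278 lower genes 261 lie below it. The remaining called genes, Sema5a among them, lie in the opposite quadrants.

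Set directly against Pou3f1 with Hoxa5, Flag-Pou3f1 differed at 13 genes (0.0652%), 3 higher (0.015%) and 10 lower (0.0502%). Against Pou3f1 with Hoxc6 it differed at 316 (1.58%), 135 higher (0.677%) and 181 lower (0.908%), and there Pou3f1 itself differed by -1.36 and Cdh9 by -2.87. These comparisons share the Flag-Pou3f1 arrays with the one against untagged Pou3f1.

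Of 13 generic motor neuron genes 0 were called between the lines. Of all genes 2.21% differed, so the count says little about so short a list. The median of the 13 was 0.15, with 7 above 0, beside 0.0494 and 58.9% over all genes. Isl1, the LIM factor that specifies motor neurons, measured 13.13 and 13.10 in Flag-Pou3f1 and 12.88 and 12.94 in untagged Pou3f1, with a difference of 0.21 (adjusted p = 0.49). Mnx1, the homeodomain factor also called HB9, measured 9.53 and 9.46 in Flag-Pou3f1 and 8.88 and 9.03 in untagged Pou3f1, with a difference of 0.54 and an adjusted p of 0.0788, which was 0.00723 within batch 6 alone. Chat, the enzyme that makes acetylcholine, differed by 0.36 (adjusted p = 0.176) and Slc18a3, which loads acetylcholine into vesicles, by -0.19 (adjusted p = 0.526). The mean level of the 13 genes was 11.47 to 11.58 over these 4 arrays, beside 11.57 and 11.62 in YFP, and these levels alone do not tell the cell type.

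Of 12 phrenic genes 0 were called, where 2.21% of all genes differed, and the median was -0.01, with 6 above 0. Relative to YFP 3 of the 12 rose in Flag-Pou3f1, where 1.28% of all genes were higher, and 2 in untagged Pou3f1, where 0.246% were. Alcam, an immunoglobulin adhesion protein of phrenic neurons, measured 7.80 and 8.03 in Flag-Pou3f1, 8.83 and 8.83 in untagged Pou3f1, and 8.80 and 8.73 in YFP. Its difference of -0.92 did not pass (adjusted p = 0.168), but did within batch 6 alone (adjusted p = 0.00551). Ptn, the growth factor pleiotrophin, differed by 0.24 and Hoxa5, which specifies cervical motor neurons, by 0.06. Hoxa5 read 9.89 and 9.95 in Flag-Pou3f1 and 9.93 and 9.79 in untagged Pou3f1.

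The next lists are short, and counts of 0 or 1 in them say little where 2.21% of all genes differed. In the lateral motor column list 0 of 10 were called (median -0.30), in the median and hypaxial column list 0 of 8, and in Hox paralogues 1 to 5 0 of 14. Hoxa9 rose by 0.43, the 1 of 11 called in Hox paralogues 6 to 9. It read 6.60 and 6.46 in Flag-Pou3f1, 6.16 and 6.03 in untagged Pou3f1, and 6.46 and 6.42 in YFP, so the untagged arrays were the low ones, and the call was lost after centring or a second quantile normalization. Type II cadherins had 0 of 11 called (median -0.24). Of 10 delta protocadherins Pcdh1 fell by 0.68. Axon guidance receptors and ligands leaned down, with a median of -0.32 and 1 of 33 above 0, and 2 fell: Sema5a and Plxna4, a receptor for class 3 and 6 semaphorins, by 0.82. Sema5a spans 452 kb and Plxna4 444 kb, and the part of gene span in the shift of this list was not tested.

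In the chosen lists of markers of other cell types 1 gene was called, where 2.21% of all genes differed. Evx1, a factor of V0 interneurons, rose by 0.54, to 6.80 and 6.73 in Flag-Pou3f1, against 6.25 and 6.21 in untagged Pou3f1 and 6.51 and 6.55 in YFP. The untagged arrays were the lowest of the 13, Flag-Pou3f1 stood 0.23 above YFP (adjusted p = 0.479), and the call was lost after centring on array medians. Evx1 was the 1 of 19 interneuron genes called, and their mean level was 7.43 and 7.44 in Flag-Pou3f1 and 7.39 and 7.34 in untagged Pou3f1. The neural crest list had 0 of 9 called, oligodendrocyte and astrocyte 0 of 9, mesoderm, endothelium and fibroblast 0 of 13, epithelial 0 of 11, pluripotency 0 of 12, and neural progenitor and radial glia 0 of 16. Mesoderm, endothelium and fibroblast genes averaged 7.45 and 7.75 in Flag-Pou3f1 and 7.35 and 7.42 in untagged Pou3f1, and pluripotency genes 6.92 and 6.89 in Flag-Pou3f1 and 6.71 and 6.65 in untagged Pou3f1. Tlx2 and Tlx3, homeobox factors of sensory and autonomic neurons named here after their values were seen, rose by 0.58 and 0.56, with both Flag-Pou3f1 arrays above the other 11, at levels between 7.44 and 7.81. At Tlx2 the untagged arrays were also the lowest of the 13, and its call was lost after centring on array medians. Flag-Pou3f1 stood 0.31 above YFP at Tlx2 and 0.40 at Tlx3 (adjusted p = 0.3 and 0.124).

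Lists for stress and housekeeping held few calls, but only 2.21% of all genes differed, so these counts say little about the lists. Integrated stress and apoptosis (13 genes), the unfolded protein response (15), heat shock (9), immediate early genes (16), hypoxia and glycolysis (18), cholesterol synthesis (17), histones (46), splicing factors (27), and synapse and mature neuron genes (15) had 0 called, as had the 17 cell cycle genes. The proteasome list had 1 of 39 called, the ATPase subunit Psmc4, which rose by 0.49. Some lists leaned up: 16 of 18 hypoxia and glycolysis, 15 of 17 cholesterol synthesis and 34 of 39 proteasome genes were above 0. That held for 58.9% of all genes and for 18 of the 46 histones. Of 61 cytosolic ribosomal proteins Rplp1 rose by 0.53 and Rpl21 fell by 0.37. Of 317 zinc finger genes of the Zfp type 7 fell and 0 rose, with a median of -0.06, among them Zfp609 (-0.57), Zfp472 (-0.61), Zfp618 (-0.53) and Zfp652 (-0.40). For comparison, 1.39% of all genes were lower.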

How the data were processed

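RNA from the sorted, induced cells was labelled with biotin and hybridised to Affymetrix mouse gene arrays. The deposited table holds log2 values, which the submitters' processing notes credit to RMA and oligo, run by the authors; versions were not given in the sources used here. Scanner intensities were not used, so background was not examined, and for arrays their number limits the precision. Of 35556 transcript clusters, 21789 had exactly 1 gene symbol and 13767 had several or none and were left out. For 999 genes with more than 1 cluster the one with the highest mean over the 68 arrays was kept, which left 19938 genes.

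All 68 arrays, 31 groups in 8 batches, entered 1 limma model (limma 3.58.1, R 4.3.3, lmFit and eBayes) with terms for group and batch (37 columns, 31 residual and 6.08 prior degrees of freedom). Tests were two-sided with Benjamini-Hochberg adjustment, and the threshold was 0.05. The comparisons with YFP of CD14-sorted cells rest on the 2 YFP arrays of batch 6, because batch 7 is tied to batch 6 through YFP alone. Responsive genes came from a fit of the 45 CD2 arrays alone. On simulated data for the comparison of the lines, over 19938 genes, the fit recovered 30.3% of changes of 0.5 log2 units, 89.6% of 1 and 100% of 2. Of its 152 calls 5 were false. The simulated noise was independent between genes and equally wide in every group. The real Flag-Pou3f1 arrays stood further apart than other pairs, jointly at cell cycle genes, so these rates need not hold for them.

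Named genes are the 15 largest rises and 15 largest falls with non-overlapping arrays, up to 4 called genes of each of 37 lists, the 10 genes Pou3f1 raised most in CD2 arrays, and a fixed set including Pou3f1, Cdh9, Isl1 and Malat1. Genes named outside this are the called microRNAs, the responsive genes that differed or hold the octamer, the genes passing without any 1 array, and genes given beside these to describe a list or a spread, all chosen after their values were seen. RIKEN clones, predicted genes and chemosensory receptors were counted, not named. The comparison, its lists and rules were chosen with earlier results of these data known. Lists are described by counts and medians, with no test. Alternatives changed the arrays in the fit, the batch and replicate terms, the scaling, the filter, the variance prior and the clusters. Sequences are from RefSeq tables of GRCm38.p6.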

Additional observations from a re-analysis of the deposited data

Results flagged for a closer look

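Of 61 genes named by rule, 1 had an array far from its group among the 4 YFP arrays of CD14-sorted cells. Igfbpl1 read 8.18 in replicate 2 of batch 7, while the other 3 read 8.39 to 8.41. Chance flags about 1 in 20 such groups. The gap is small beside the rise of Igfbpl1 in Flag-Pou3f1, and that array adds nothing to the fitted differences.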

How the results depend on the processing

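The number of genes that differed between Flag-Pou3f1 and untagged Pou3f1, 440 in the fit of all 68 arrays, depended on which arrays and terms entered the fit. It was 2351 with batch 6 arrays alone, 3307 with CD14 arrays alone, 683 without 6 batch 4 arrays of high Hoxa5, 0 with the 4 arrays alone by limma (4774 at an unadjusted p under 0.05) and 0 without batch terms (2094 unadjusted). Without 1 of the 4 arrays it was 53 to 115. Against YFP, Flag-Pou3f1 gave 486 genes, which became 2227 with batch 6 alone, 3180 with CD14 arrays alone, 318 without batch terms and 40 to 435 without 1 array. Untagged Pou3f1 against YFP gave 61, which became 302, 578, 168 and 16 to 58. Second quantile normalization (442), leaving out the lowest 30% of genes (503), a trended robust prior (489) and every single-symbol cluster (523) moved the first count by less than 1.5 times. The Pou3f1 difference of 0.03 was -0.018 after centring on array medians and -0.13 to 0.18 without 1 array. The median of the 91 responsive genes, -0.085, cannot move where only other arrays, model terms or the variance prior change. It was -0.075 after a second quantile normalization, -0.129 after centring and -0.074 without the lowest 30% of genes. Without 1 array it ran from -0.168 to -0.00543.

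A replicate block over the shared replicate numbers left 409 genes. With only 2 pairs, whose deviations correlated at 0.160 across genes, the numbers are not known to pair the arrays.

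Among the named genes 15 values changed sign, none past the threshold. Centring gave Mro -0.035 and Crym -0.036. Without 1 of the 4 arrays the values ran from -0.40 to 0.36 for Inpp4b, -0.22 to 0.31 for Cdh10, -0.12 to 0.13 for Mro, -0.11 to 0.33 for Cadps2, -0.56 to 0.57 for Crym, -0.26 to 0.17 for Dlk1, -0.0099 to 0.13 for Hoxa5 and -1.36 to 0.34 for Mki67. In all 236 values lost their call, 43 each with the 4 arrays alone and without batch terms. The cause of these shifts was not tested beyond the arrays left out.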
